A study of Mus musculus with 9 samples.

Results

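A run of 5 neighbouring CpGs with gaps of 14, 4, 37 and 20 bp recurs on every mouse chromosome covered here. Its copies were all highly methylated in fibroblasts, with means over the fibroblast samples of 78.7 to 94.1% per copy. Copies were found among CpGs with at least 5 calls in at least 5 of the 9 libraries, as 5 neighbours with these gaps or with their mirror image of 20, 37, 4 and 14 bp. A copy was kept where its 5 CpGs together held at least 10 calls in each of the 8 samples. This left 788 of 791 copies, 403 read forward and 385 mirrored, out of 1248363 runs of any spacing with that many calls. The copies were chosen by their spacing and their number of calls, and methylation did not enter the rule. The spacing was however picked out in an earlier reading of these same data, so no test was made over the copies as a group. The 3 copies left out held 0, 5 and 9 calls in their least covered sample. The most thinly covered copies kept held 10 and 12.

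The data are reduced representation bisulfite sequencing, in which DNA is cut by MspI at CCGG and treated so that unmethylated cytosine reads as thymine. The fibroblasts (label TT) were grown from tail tips of adult male mice. The embryos (label NTZy14, here NT embryos) were built by nuclear transfer: the nucleus of such a fibroblast was put into a C57/B6 oocyte whose own nucleus had been removed. They were activated with strontium chloride, with cytochalasin B in the medium, and cultured in KSOM. Each stage held 2 samples labelled BDF1-CAST, numbered 1 and 2, and 2 labelled X1, numbered 3 and 4. What X1 and the digits in NTZy14 stand for is not given in the sources used here. An NT embryo carries the donor's nuclear genome in the cytoplasm of an egg. The number of embryos per library is not given in the sources used here, nor whether the samples are separate animals or cultures. A p-value therefore sets a difference only against the variation between these samples, and that variation may be technical. X1 libraries covered 1376884 to 1596888 CpGs and BDF1-CAST libraries 1746590 to 1886972, so the effect of strain and that of library coverage cannot be told apart.

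In mammalian somatic cells most CpGs outside CpG islands are methylated, and dispersed repeats such as retrotransposons carry a large part of that methylation. Methylation keeps many retrotransposons silent, and it is passed on at cell division by DNMT1, which copies it to the new strand. The egg and early embryo remove much of the methylation of the incoming paternal genome, in part by oxidation through TET3. A run of CpGs that comes back with the same gaps at many places is what a repeated sequence gives. Which repeat these copies belong to was not examined, because no genome or repeat annotation of the files' build was used here. For the same reason no sequence is printed and no gene is named. Positions are those of the files, on build mm9.

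The 788 copies had a median of 116 to 308 calls per fibroblast sample and 51 to 100 per NT embryo sample. Levels in NT embryos are therefore the less precise ones. In fibroblasts the mean level over copies was 88.7 and 88.7% in the BDF1-CAST samples and 86.2 and 85.9% in the X1 samples. In NT embryos it was 76.7 and 77.3% in BDF1-CAST and 83.7 and 79.9% in X1. Every NT embryo sample lay below every fibroblast sample, and the lower 2 NT embryo samples were the BDF1-CAST ones. The mean of the fibroblast samples was 87.4% ± 1.52 (SD, n = 4), that of the embryos was 79.4% ± 3.18 (SD, n = 4), and they differed by -8.004 percentage points. Within BDF1-CAST the stages differed by -11.7 points, and within X1 by -4.29 points, each from 2 samples a stage. Forward copies differed by -8.03 points and mirrored copies by -7.97 points. The 79 copies on X differed by -7.72 points and the 709 autosomal ones by -8.04 points.

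**Figure D1:**
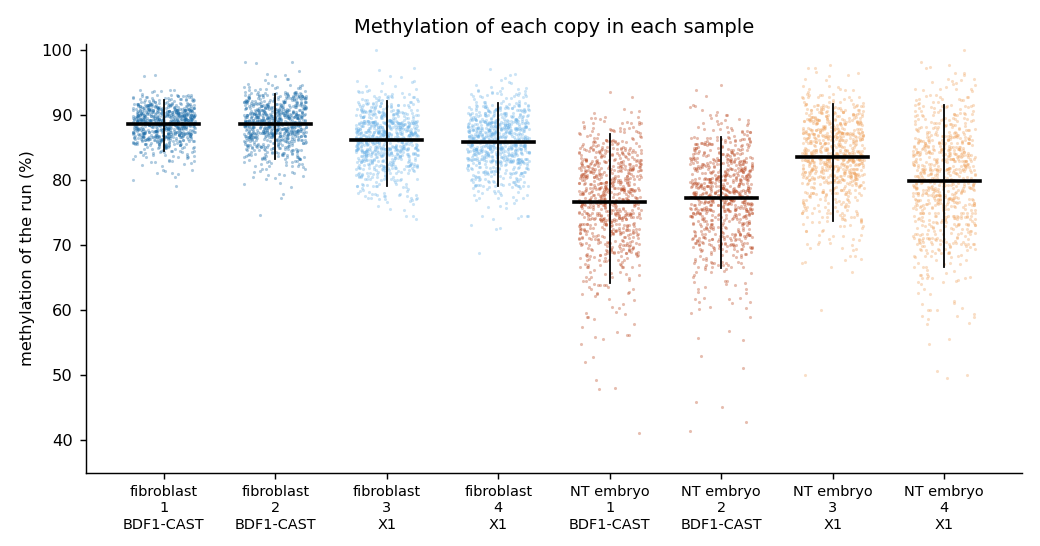
Methylation level in percent (vertical axis) of each of the 788 copies in each of the 8 samples (horizontal axis). Each dot is 1 copy, the thick bar is the mean over copies and the thin line runs from the 5th to the 95th percentile. The means lie between 85.9 and 88.7% in fibroblasts and between 76.7 and 83.7% in NT embryos, and the dots spread more widely in NT embryos.

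The copies stayed in the methylated range at both stages. The share of copies at 80% or more was 99.9, 99.2, 93.7 and 92.0% in the 4 fibroblast samples. In NT embryos it was 35.2 and 36.7% in BDF1-CAST and 78.7 and 53.2% in X1. No copy was under 60% in any fibroblast sample. In NT embryos 2.54, 1.40, 0.127 and 1.52% of copies were under 60%, and none was under 20% in any sample. The median copy differed by -7.89 points between stage means, with a 5th percentile of -14.3 and a 95th percentile of -1.66.

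Sets of other runs were measured in the same way. All 530319 tested runs, which span at most 150 bp, averaged 17.0% ± 0.241 in fibroblasts and, in the embryos, 15.0% ± 1.02 (SD, n = 4 each). Most of them lie at low levels, and their median difference was -0.292 points. A closer match in starting level is the set of 74499 runs at 80% or more in fibroblasts. These averaged 87.3% and 76.7%, a difference of -10.6 points with a median of -7.72, near the copies' median of -7.89. They were picked by the same fibroblast levels from which their difference is read, and the copies were not. That choice can widen their difference and raise their shares of runs lower in NT embryos. The 1227 copies of another recurring spacing, 8-2-16-8, averaged 87.8% ± 0.78 in fibroblasts and, in the embryos, 88.1% ± 2.73 (SD, n = 4 each). The 1499 copies of the spacing 21-12-45-25 averaged 84.3% in fibroblasts and, in the embryos, 67.7% ± 12.8 (SD, n = 4), a difference of -16.5 points. That embryo mean joins unlike strains, with stage differences of -25.9 points in BDF1-CAST and of -7.13 points in X1. No test of these differences between families was made.

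Single copies were tested in a fit to all 530319 runs (quasi-binomial logistic model with limma-moderated dispersion, Benjamini-Hochberg adjustment). A run counted as called between stages where the adjusted p was under 0.05 and the mean levels lay 20 points or more apart. No copy was called, against 0.734% of all tested runs (0.715% lower in NT embryos) and 3.74% of the runs at 80% or more in fibroblasts. At an unadjusted p under 0.05, 459 copies (58.2%) were lower in NT embryos, against 13.7% of all tested runs and 42.3% of the highly methylated ones. Such shares also depend on the calls per run, which were not compared between the copies and the other runs. The mean was lower in NT embryos in 773 copies (98.1%), where the background is 62.6% over all runs and 83% over highly methylated ones. In 210 copies (26.6%) all 4 NT embryo samples lay below all 4 fibroblast samples, against 6.17% of all tested runs and 20.6% of the highly methylated ones. In no copy did all 4 lie above, against 0.407% of all tested runs and 0.404% of the highly methylated ones. The copies thus shared a small difference in 1 direction, and none combined a called p with 20 points. The count of 459 rested in part on single samples. It was 255 without fibroblast BDF1-CAST sample 1, and 295 and 294 without NT embryo BDF1-CAST samples 1 and 2. With only library 1a of that fibroblast sample left out it was 424. Shares of all tested runs were not counted with these samples or this library left out.

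With no minimum difference, 7 copies (0.888%) had an adjusted p under 0.05 in this model and were lower in NT embryos, close to the background of 0.807% of all tested runs and under the 3.92% of the highly methylated ones. Limma on arcsine square root levels gave 21 copies, of either direction. The share of all tested runs was not counted with that method, so the 21 have no background. The 7 copies depended on the full set of samples: none of them kept an adjusted p under 0.05 when any sample other than NT embryo X1 sample 3 was left out, and without that sample 1 did. The largest difference of the 7 was on chromosome 14, 106738400 to 106738475. Its fibroblast levels were 89.7, 90.6, 87.0 and 93.1% and its NT embryo levels 67.0, 73.4, 69.4 and 72.5%. The groups did not overlap and the strains lay close together, with a difference of -19.5 points (adjusted p = 0.0357, limma-moderated quasi-binomial model). A copy on chromosome 7, 18773405 to 18773480, had 92.3, 89.6, 93.6 and 93.4% in fibroblasts and 70.4, 81.0, 71.4 and 71.1% in NT embryos. It differed by -18.8 points, with NT embryo BDF1-CAST sample 2 above the other embryos. The lowest adjusted p of any copy, 0.0236 in the same limma-moderated model, belonged to a copy on chromosome 7, 90931897 to 90931972. It differed by only -8.23 points but held 30 to 2326 calls per sample. Its BDF1-CAST samples carried most of those calls and had 88.8 and 87.5% in fibroblasts and 70.1 and 71.7% in NT embryos. Its X1 samples had 77.9 and 88.2% in fibroblasts and 87.8 and 80% in NT embryos, and so overlapped.

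The 5 copies with the most calls in their least covered sample were all at or above 71.6% in every sample. The deepest, on chromosome 6, 46237748 to 46237823, held 231 to 967 calls. It had 88.8, 92.3, 82.3 and 85.7% in fibroblasts and 83.1, 87.8, 85.1 and 77.3% in NT embryos, and the stages overlapped. The next, on chromosome 17, 14723829 to 14723904, held 197 to 475 calls. It had 93.9, 93.5, 93.9 and 90.3% in fibroblasts and 74.1, 71.6, 90.0 and 78.8% in NT embryos. All 4 embryo samples were lower there, with a difference of -14.3 points in the mean, and the adjusted p of the same limma-moderated model was 0.0962. The third, on chromosome 6, 4042458 to 4042533, held 177 to 659 calls. It had 89.1, 91.4, 86.5 and 87.9% in fibroblasts, 80.7 and 77.6% in BDF1-CAST embryos and 90.8 and 94.4% in X1 embryos. Both X1 embryos thus lay above both X1 fibroblast samples at this copy. The other 2, on chromosome 16, 87193625 to 87193700, and chromosome 15, 41076073 to 41076148, averaged 90.0 and 89.6% in fibroblasts. They averaged 87.2 and 87.0% in NT embryos, and at both the stages overlapped.

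The copies at both ends of the range were these. The lowest fibroblast mean, 78.7%, was on chromosome 5, 54527607 to 54527682. The next lowest were 79.9% on chromosome 8, 44877160 to 44877235, and 80.1% on chromosome 14, 3486047 to 3486122. The highest were 94.1% on chromosome 5, 82472119 to 82472194, then 93.5% on chromosome 4, 83605486 to 83605561, and 93.5% on chromosome 12, 73304228 to 73304303. The largest negative difference between stage means was on chromosome 5, 62819149 to 62819224, which held 28 to 133 calls per sample. It had 91.0, 92.1, 94.5 and 95.5% in fibroblasts, 62.5 and 42.9% in BDF1-CAST embryos and 80 and 85.7% in X1 embryos. All embryo samples were lower, with a difference of -25.5 points in the mean, and the adjusted p of the limma-moderated model was 0.0513. The largest positive difference, 3.81 points, was on chromosome 1, 3334868 to 3334943, with an adjusted p of 0.607 in that model.

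The 5 places in the run did not have the same level. Counted from the outer CpG of the 14 bp gap, place 1 lies at 0, place 2 at 14, place 3 at 18, place 4 at 55 and place 5 at 75 bp. Each place was measured in copies with at least 5 calls at it in every sample, which left 777, 727, 731, 403 and 419 copies. Place 1 had 92.8, 93.1, 91.0 and 90.9% in fibroblasts and 81.6, 80.9, 87.6 and 85.4% in NT embryos. Place 2 had 84.8, 83.8, 82.4 and 83.0% in fibroblasts and 78.2, 76.99, 81.7 and 77.5% in NT embryos. Both places were lower in every embryo sample than in any fibroblast sample, with differences of -4.89 points at place 2 and -8.05 points at place 1.

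Place 3 had 84.3, 84.7, 78.5 and 77.6% in fibroblasts and 76.4, 75.6, 79.7 and 75.97% in NT embryos. Here the stages overlapped: BDF1-CAST embryos differed from their fibroblasts by -8.45 points, and X1 embryos from theirs by -0.265 points. Place 4 had 86.1, 86.1, 85.6 and 85.2% in fibroblasts and 66.7, 72.6, 81.5 and 74.5% in NT embryos. Place 5 had 92.0, 91.8, 89.8 and 89.3% in fibroblasts and 67.3, 76.4, 83.4 and 74.2% in NT embryos. Places 4 and 5 thus showed the widest gaps between stages, -11.9 and -15.4 points, and the widest spread between embryo samples, with SDs of 6.12 and 6.61 points (n = 4).

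**Figure D2:**
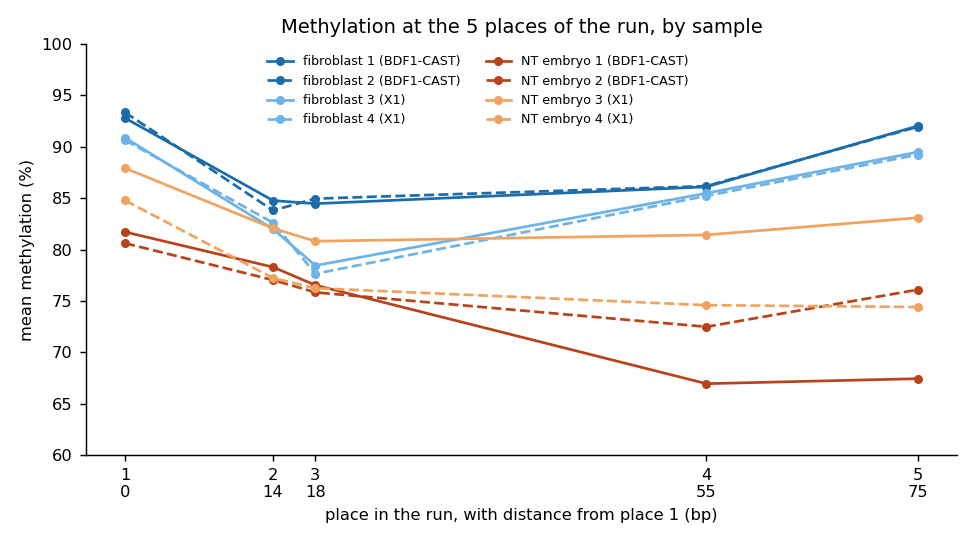
Mean methylation level in percent (vertical axis) against position in the run in bp from place 1 (horizontal axis), 1 line per sample, over the 365 copies with at least 5 calls at all 5 places in every sample. The fibroblast lines dip at places 2 and 3 and return at place 5, and the NT embryo lines lie lowest, relative to fibroblasts, at places 4 and 5.

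The order of the places was compared within each sample, which removes its overall level. In the 365 copies with calls at all 5 places, the mean of places 4 and 5 minus that of places 2 and 3 was 4.45, 4.68, 7.26 and 7.10 points in fibroblasts. In NT embryos it was -10.2, -2.14, 0.822 and -2.23 points. All 4 embryo values lay below all 4 fibroblast values, and 3 of the 4 were below 0. Place 1 stayed above places 2 and 3 at both stages, by 8.17 to 10.7 points in fibroblasts and 4.18 to 8.04 points in NT embryos. The difference between stages was larger at place 5 than at place 2 in 303 of the 365 copies, and larger at place 5 than at place 1 in 279. In fibroblasts place 1 lay above place 2 in 361 of them and above place 3 in 362.

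Calls also moved between places and stages. Place 1 held 29.1% of a run's calls in fibroblasts and 35.1% in NT embryos. Place 4 held 16.6 and 11.2%, and place 5 held 20.2 and 15.7%. The median number of calls at place 4 was 48, 21, 21 and 22 in fibroblasts and 9, 12, 10 and 5 in NT embryos. The NT embryo libraries were therefore thinnest at the 2 places with the widest gap, and their part in that gap was not tested. With at least 10 calls at a place, 7 copies were left at place 4 and 53 at place 5. The stages then differed by -9.83 points at place 4 and -12.5 points at place 5. With calls pooled over all 788 copies, the differences were -11.5 and -13.4 points.

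CpGs beyond the run were laid out by their distance from place 1, in the direction of the run. Outside the run, 56 distances held a CpG in at least 100 copies, so the copies share a longer pattern. Of these, 49 had a level, from at least 30 copies with 5 or more calls in every sample. Their fibroblast means ran from 72.5 to 92.2%, and all 49 were lower in NT embryos, with differences of -27.0 to -3.98 points and a median of -8.47. The pattern repeated at 214 bp. At 214 bp before place 1 fibroblasts had 92.2% and NT embryos 84.1%. At 214 bp after it they had 92.1 and 83.5%. Place 1 itself had 91.9 and 83.9%. Many of these CpGs are place 1 of a neighbouring copy. CpGs near neighbouring copies likewise enter at more than 1 of the 49 distances, which are therefore not independent.

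**Figure D3:**
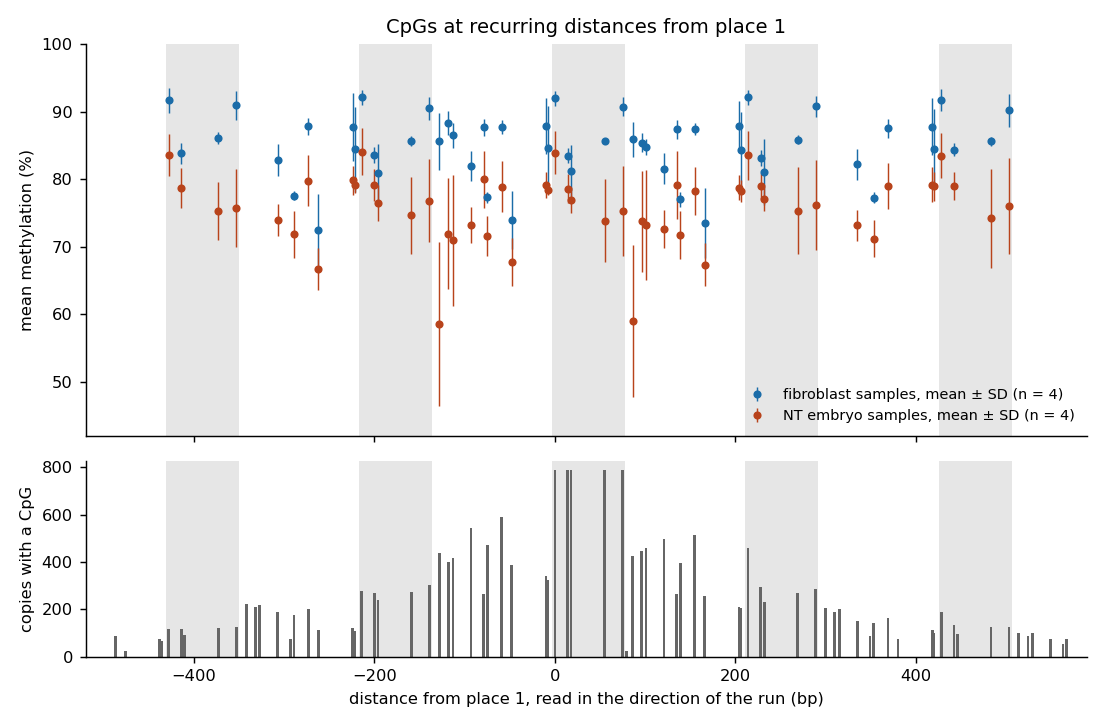
Upper panel: mean methylation level in percent at CpGs by distance from place 1 in bp, with the SD over the 4 samples of each stage as error bars. Lower panel: number of copies with a CpG at that distance. Grey bands mark the run and its shifts by 214 and 428 bp. Counts peak again inside the shifted bands, and NT embryos lie below fibroblasts at all 49 plotted distances outside the run, where at least 100 copies hold a CpG and the level comes from at least 30 of them.

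Levels differed with the distance. At 75 bp before place 1 (431 copies) fibroblasts averaged 77.3% and NT embryos 71.6%. At 59 bp before it (572 copies) they averaged 87.7 and 78.9%. The CpG 48 bp before place 1 had 78.8, 76.4, 70.2 and 70.4% in fibroblasts and 70.4, 68.7, 69.3 and 62.5% in NT embryos. The largest gap between stages lay 128 bp before place 1. There fibroblasts had 90.0, 88.2, 82.5 and 81.6% and NT embryos 45.3, 65.7, 71.6 and 51.7%. At 86 bp after place 1, which is 214 bp further on, fibroblasts had 89.3, 86.5, 83.3 and 84.5% and NT embryos 48.4, 71.2, 65.7 and 50.7%. These 2 levels rest on 50 and 36 copies, and can share CpGs where copies lie 214 bp apart.

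Neighbouring copies repeat in register. Among copies within 1000 bp of the next, 223 pairs were found, all in the same orientation. Of these pairs, 176 were exactly 214 bp apart and 42 were 428 bp apart, which is 2 steps of 214. Joined in this way, 357 copies formed 134 arrays, of which 86 held 2 copies and the longest held 6, and 431 copies stood alone. Alone means only that no other kept copy lay within 1000 bp. A CpG lay 214 bp before place 1 in 277 copies and 214 bp after it in 458, and belonged to another copy in 176 each. Copies alone can thus still lie beside further steps of the repeat. Copies alone averaged 87.4% in fibroblasts and differed by -8.21 points between stages. Copies in arrays averaged 87.3% and differed by -7.76 points.

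The CpG next to the run was often at 1 of a few distances, among 99 different gaps before place 1 and 154 after place 5. Gaps of 8, 10, 48 or 59 bp preceded 654 of the 788 copies, and 548 were followed at 11 or 46 bp. The gap before place 1 was 8 bp in 323 copies (40.99%), 48 bp in 232 (29.4%), 59 bp in 71 (9.01%) and 10 bp in 28. The gap after place 5 was 11 bp in 425 copies (53.9%) and 46 bp in 123. For the gaps before place 1 of 8, 48, 59 and 10 bp, the stages differed by -8.25, -7.36, -7.53 and -7.52 points. A further 51 copies (6.47%) had no CpG that passed the filter for 5600 to 5650 bp before place 1. No copy had such a gap after place 5. Over all neighbouring CpGs, gaps of that size made up 2743 of 1342437. These 51 copies averaged 87.0% in fibroblasts and 77.2% in NT embryos, a difference of -9.73 points.

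**Figure D4:**
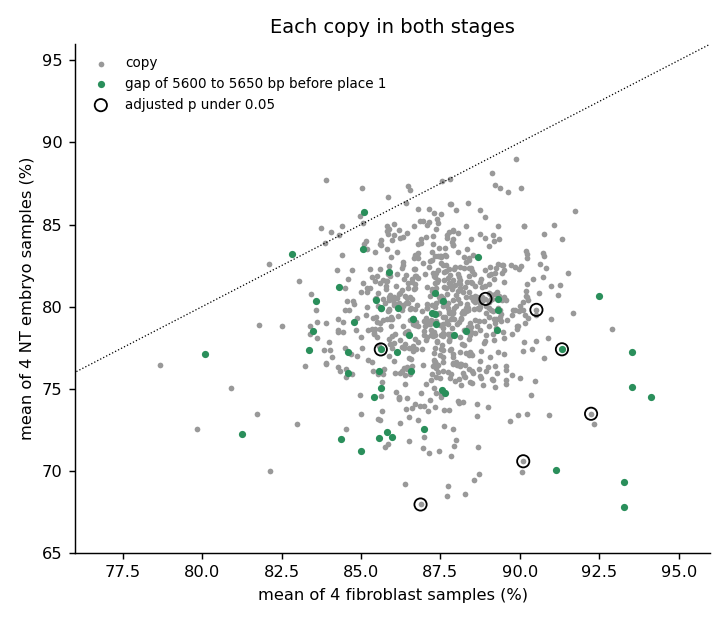
Mean level in the 4 NT embryo samples (vertical axis, percent) against the mean level in the 4 fibroblast samples (horizontal axis, percent), 1 point per copy. Green points are the 51 copies with a gap of 5600 to 5650 bp before place 1, circles mark the 7 copies with an adjusted p under 0.05, and the dotted line is equality. Of the 788 copies, 773 lie below the line.

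Copies lay on all 19 autosomes and X. X held 79 copies (10.0% of them) but 2.78% of the tested runs, or 5.35 copies per 1000 tested runs. Chromosome 14 held 68 copies (3.29 per 1000) and chromosome 6 held 65 (2.54 per 1000). Chromosome 11 held 16 copies, 0.41 per 1000 tested runs, the lowest rate of any. Levels varied little with the chromosome: means over copies ran from 86.7 to 88.4% in fibroblasts and from 78.1 to 80.6% in NT embryos.

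The strain labels stood in opposite order at the 2 stages. The X1 minus BDF1-CAST difference was -2.62 points in fibroblasts, and in NT embryos it was 4.804 points. The strain term was fitted over both stages together, so differences of opposite sign partly cancel in it. Low counts for this term therefore do not show that the strains were alike within a stage. No copy was called between strains (adjusted p under 0.05 and 20 points in the limma-moderated model), against 0.00302% of all tested runs, and the lowest adjusted p of a copy in it was 0.220. At an unadjusted p under 0.05, 52 copies (6.6%) differed between strains, against 15.3% of all tested runs. Of these 25 (3.17%) were higher in X1, against 6.31% of all tested runs. No copy was called for an unequal stage difference in the 2 strains, as was none of all tested runs (0%), and the lowest adjusted p of a copy was 0.809 in the limma-moderated model. Unadjusted, 114 copies (14.5%) passed 0.05 for this term, against 5.56% of all tested runs. Limma on transformed levels gave 47 and 154 copies for these unadjusted counts. The shares of all tested runs were not counted with limma on transformed levels, so these 2 counts have no background. The shares for strain and for the unequal stage difference were not counted over the runs at 80% or more in fibroblasts. Most of all tested runs lie at low levels, so they do not match the copies in level. The highly methylated runs also had unequal stage differences, of -14.6 points (BDF1-CAST) and -6.69 points (X1). Whether these shares are particular to the copies was therefore not tested.

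The strain difference in fibroblasts was uneven along the sequence. At place 3 the X1 minus BDF1-CAST difference in fibroblasts was -6.39 points. The CpG 8 bp before place 1 (314 copies) had 89.1 and 90.7% in BDF1-CAST fibroblasts and 80.02 and 78.6% in X1 fibroblasts. In NT embryos it had 79.4 and 77.8% in BDF1-CAST and 79.0 and 77.6% in X1. The strain difference of -10.6 points in fibroblasts thus stood at -0.251 points in embryos. The CpG 10 bp before place 1 (332 copies) had 91.0 and 91.9% in BDF1-CAST and 84.1 and 84.3% in X1 fibroblasts. At 206 bp after place 1, 1 step along the repeat, the X1 minus BDF1-CAST difference was -9.47 points in fibroblasts and -0.146 points in embryos. Where a neighbouring copy lies 214 bp further on, this is the CpG 8 bp before place 1 of that copy. The same calls can then enter both values, so they are not independent. Over the 49 distances outside the run, X1 was the lower strain at 48 in fibroblasts and the higher strain at 41 in NT embryos. Neighbouring copies share CpGs between these distances, so the counts are not of independent CpGs. Copies with a CpG 8 bp before place 1 showed a wider strain difference over the run itself, at 89.7% in BDF1-CAST and 85.3% in X1 fibroblasts. Copies with the 48 bp gap had 88.2 and 86.5%. None of these position-wise differences was tested.

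**Figure D5:**
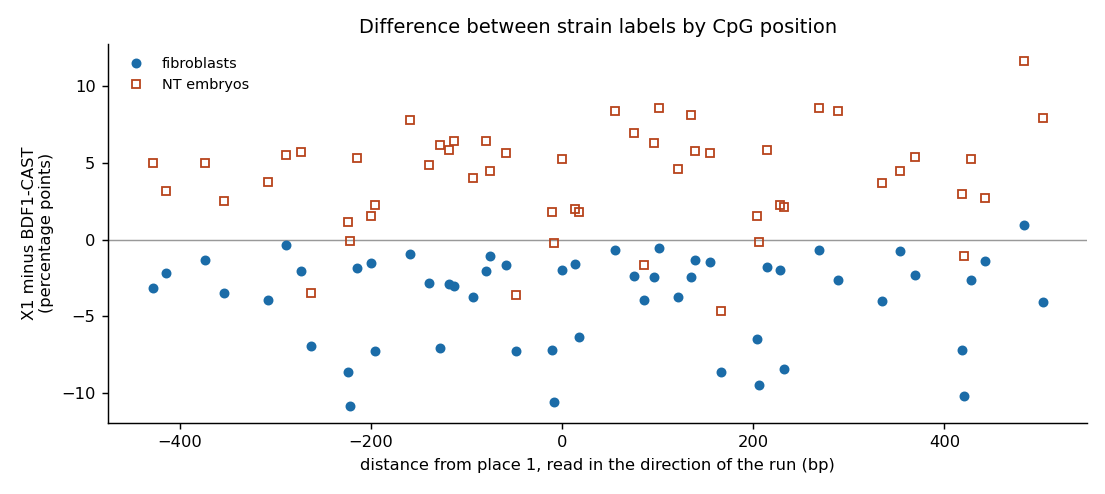
Difference X1 minus BDF1-CAST in percentage points (vertical axis) at CpGs by distance from place 1 in bp (horizontal axis), for fibroblasts and NT embryos, each from the mean of 2 samples a strain. Fibroblast points lie below 0 at 48 of the 49 distances outside the run, with the lowest at -10.8 points, 222 bp before place 1, and -10.6 points at 8 bp before it, and NT embryo points lie above 0 at 41.

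Levels spread more between copies in NT embryos than in fibroblasts. The SD over copies was 2.41, 3.19, 3.91 and 4.04 points in fibroblasts and 7.14, 6.82, 5.69 and 7.83 points in NT embryos. Counting calls alone would give 1.82 to 3.26 points in fibroblasts and 4.204 to 5.82 points in NT embryos. The observed variance was 1.45 to 1.76 times the counting variance in fibroblasts and 1.81 to 2.71 times in NT embryos. CpGs on 1 read are not independent, so the counting SD is too small by an unknown amount. Copy levels were weakly related from sample to sample. Over the 788 copies, Pearson's r between samples ran from -0.115 to 0.289 over the 28 pairs, with a median of 0.0268. Pairs of the same stage and strain had r of 0.289 (BDF1-CAST) and 0.157 (X1) in fibroblasts. In NT embryos such pairs had 0.166 (BDF1-CAST) and 0.0592 (X1). These correlations are across copies in libraries of limited depth, and are given as a description. Neighbouring copies 214 bp apart (176 pairs) had r from -0.100 to 0.108 within a sample. How reads that match several copies were placed is not given in the sources used here, and its part in these values was not tested.

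CpGs within 500 bp on either side were lower in NT embryos too. Over 768 copies with at least 10 calls there in every sample, and a median of 18.5 such CpGs, the flanks averaged 84.5% ± 1.30 in fibroblasts. In the embryos they averaged 75.4% ± 3.13 (SD, n = 4 each). Every NT embryo sample lay below every fibroblast sample in the flanks as well, and the difference was -9.11 points. The run was higher than its flanks by 2.75, 3.64, 2.67 and 2.67 points in fibroblasts and by 4.05, 3.88, 4.07 and 4.15 points in NT embryos. All 4 embryo values exceeded all 4 fibroblast values, and the means were 2.93 ± 0.474 and 4.04 ± 0.113 points (SD, n = 4). The run level pools calls, and place 1, the highest place, held 29.1% of them in fibroblasts and 35.1% in NT embryos. With the 5 CpGs weighted equally, in 365 copies, the run differed by -8.82 points between stages. The part of this shift of calls in the wider distance from the flanks was not tested. CpGs before place 1 averaged 84.6% in fibroblasts and 75.2% in NT embryos, and CpGs after place 5 averaged 84.5 and 75.2%. Among neighbouring copies, 176 pairs lay 214 bp apart and 42 pairs lay 428 bp apart, all in the same orientation. There the CpGs after a copy can also be CpGs before the next. The closeness of these averages is therefore in part built in. Flanks of 500 bp can likewise hold CpGs of a neighbouring copy, so run and flanks are not fully separate sets. Across copies the run and its flanks were nearly unrelated, with r of -0.07 in fibroblasts and 0.10 in NT embryos over stage means of the 768 copies.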

How the data were processed

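The authors deposited, for each library, CpG positions with counts of calls and of methylated calls, per the deposited description. The build is mm9, per the submitters' processing notes. Not given in the sources used here are the aligner, the caller and the handling of reads with several matches. Libraries 1 and 1a of fibroblast BDF1-CAST, the second a resequencing per that description, were summed, which gave 8 samples. Libraries held 25239364 to 41466097 calls with medians of 8 to 19 per CpG. Reads carry no molecular identifiers, so precision covers counting error only. A level is methylated calls over calls, and means weight copies equally. A quasi-binomial logistic model (stage and strain) was fitted to each run of 5 neighbouring CpGs in R 4.3.3. Its dispersion was moderated by limma 3.58.1 (squeezeVar) with a floor of 1, and p-values were adjusted by Benjamini-Hochberg over 530319 runs, which overlap. The fit was tested on simulated data. Other steps used Python 3.11.15, numpy 2.4.6, pandas 2.3.3 and scipy 1.17.1. Named copies are the 5 deepest, those called, the 3 highest and 3 lowest in fibroblasts, and the largest changes either way. Since none was called, copies at an adjusted p under 0.05 with no minimum difference were drawn on instead, chosen after values were seen. The members, lists and alternatives were chosen with earlier results of these data known. The deposited table of 100 bp tiles was not used.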

Additional observations from a re-analysis of the deposited data

Results flagged for a closer look

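In 154 groups of 4 values, 8 samples stood apart from the other 3 of their stage by Dixon's test, and chance alone gives 7.7 such cases at 1 in 20. In fibroblast BDF1-CAST sample 2 the run lay 3.64 points above its flanks, against 2.67 to 2.75 points in the other 3. NT embryo X1 sample 3 stood above its group at 2 CpGs outside the run, with 83.1% at 414 bp before place 1 (others 77.1 to 77.4%) and 80.5% at 196 bp before it (others 74.8 to 75.5%). It also stood above its group at the copy on chromosome 7 at 83711812, with 83.5% against 74.5 to 76.05%.

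The other 4 are single samples at single copies. Fibroblast X1 sample 4 had 90.3% on chromosome 17 at 14723829, against 93.5 to 93.9%. Fibroblast X1 sample 3 had 77.9% on chromosome 7 at 90931897, against 87.5 to 88.8%, from 68 calls. NT embryo BDF1-CAST sample 2 had 81.0% on chromosome 7 at 18773405, against 70.4 to 71.4%. NT embryo BDF1-CAST sample 1 had 47.8% on chromosome 12 at 73304228, against 85.0 to 89.1%, from 23 calls.

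At 2 named copies every BDF1-CAST embryo sample lay below both fibroblast samples of its strain and every X1 embryo sample above. On chromosome 6 at 4042458 BDF1-CAST embryos differed from fibroblasts by -11.1 points and X1 embryos by 5.33 points, a gap of 16.4 points. On chromosome 5 at 54527607 the 2 values were -11.7 and 7.27 points, a gap of 19.02 points. These 2 copies were picked out by direction alone; in the fit over all runs, the adjusted p of the product term (limma-moderated quasi-binomial model) was 0.809 for each.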

How the results depend on the processing

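The stage difference over copies stayed between -9.44 and -7.11 points when any 1 sample was left out. It was -8.82 points as an unweighted mean of CpG levels, -7.71 points with copies weighted by calls, and -8.10 points over 817 copies when each gap could differ by 1 bp. Copies called between stages numbered 1 with library 1a left out, 5 with a minimum difference of 10 points and 7 with none. They ranged from 0 to 1 over the samples left out, the 1 appearing without NT embryo X1 sample 4. Calls between strains and for the product of stage and strain were 0 under each alternative run. Without single samples, stage differences ran from -9.29 to -7.04 points at place 1, -5.91 to -4.35 at place 2, -5.57 to -3.22 at place 3, -14.4 to -9.49 at place 4 and -18.1 to -12.7 at place 5. The unadjusted count of 459 lower copies ranged from 255 to 528 over the samples left out and was 356 with limma on transformed levels. With the sample number as a replicate block, 0 copies were called, the lowest adjusted p was 0.366 (limma-moderated model) and the unadjusted count was 311. Apart from the 7 copies with no minimum difference, given above with their background, shares of all tested runs were not counted under these alternatives. The counts thus describe the copies only and cannot be set against other runs. Deviations of same-numbered samples correlated at 0.129, 0.133, 0.221 and 0.0633 over 106457 runs, and 1 of the 4 numbers correlated best with itself, so the numbers were not taken as pairs. Depth limits single copies most in NT embryos, where a copy had a median of 51 to 100 calls.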

Other observations

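Runs that keep the outer span of 75 bp but lack 1 inner CpG were looked for in the same files. The 71 runs without place 2 averaged 85.5% in fibroblasts and 75.97% in NT embryos, a difference of -9.50 points. The 155 runs without place 3 averaged 88.3 and 81.2% (-7.01 points), and the 137 without place 4 averaged 85.9 and 77.5% (-8.47 points). In fibroblasts all of these averages lie within 2 points of the 87.4% of the full run.

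Of the copies with a gap of 5600 to 5650 bp before place 1, 10 had a gap of exactly 5622 bp and 7 of 5621 bp. The 3 copies with the highest fibroblast mean had a gap of 5606 or 5607 bp. The 5 copies with these gaps, picked after their values were seen, had 91.0, 91.0, 92.4 and 94.8% in fibroblasts. In NT embryos they had 62.3 and 55.1% in BDF1-CAST and 89.7 and 86.6% in X1. BDF1-CAST embryos differed from fibroblasts by -32.3 points, and X1 embryos by -5.42 points. The copy with the largest negative difference is among these 5. Their median in the least covered sample was 28 calls, and no test was made.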
